A study of Mus musculus with 6 samples.

Results

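Contactins and contactin-associated proteins are cell adhesion molecules of the neuronal surface, and 10 of their genes were followed in RNA of the embryonic mouse forebrain. They were chosen by gene name, as Cntn1 to Cntn6 and Cntnap1 to Cntnap4, and all 10 have a row among the 21286 genes of the count table. The tissue was the lateral ganglionic eminence (LGE), the part of the ventral forebrain that makes olfactory bulb interneurons and the projection neurons of the striatum, dissected at embryonic day 16.5. There were 3 libraries from mutants homozygous for loss of Dlx1 and Dlx2 (Dlx1/2 -/-) and 3 from wild type littermates, all on a mixed background of C57BL/6J, 129S6 and CD1. The comparison asked which genes change when both transcription factors are missing. Nothing in the labels ties a library to an embryo of its own, and the spread that the p-values use may therefore be technical. Neither a promoter or Cre nor the removed parts of the genes are named in the labels.

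Contactins are held in the membrane by a lipid (GPI) anchor and carry immunoglobulin and fibronectin domains outside the cell. Contactin-associated proteins, also called Caspr proteins, span the membrane and resemble neurexins. The families meet in pairs. CNTN1 joins CNTNAP1 at the paranode, where myelin seals to the axon, and CNTN2 joins CNTNAP2 next to it, where the pair gathers potassium channels. Several members also guide axons and migrating neurons before any myelin forms.

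Total counts were 15670067 to 16196974 in the mutant libraries and 10711630 to 16588359 in the wild type libraries. Dlx2 stood at 15.5 to 18.7 CPM (read counts scaled to library size) in mutant libraries and at 418.8 to 470.7 CPM in wild type libraries, and Dlx1 at 109.3 to 137.6 CPM in mutant and 831.4 to 898.4 CPM in wild type libraries, so both targeted genes followed the labels. All 12 markers of the LGE and its neurons were found, and 10 of them were lower in the mutant and 1 did not pass. The remaining 1, the progenitor factor Gsx2, was higher, at 54.7 ± 2.43 CPM in the mutant and 24.7 ± 4.17 CPM in wild type. Here and below, ± on CPM, FPKM and shares is the SD of 3 libraries. At the threshold given below, 91.7% of these markers were called, against 24% of all tested genes. The summed level of the markers was 1862 to 2019 CPM in mutant and 4349 to 4600 CPM in wild type libraries. In bulk tissue, fewer cells of a type and less RNA per cell cannot be told apart.

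The family did not move as one. Of the 10 genes, all of which passed the filter on low counts, 6 fell in the mutant, 2 rose and 2 did not pass the test (quasi-likelihood test of edgeR, threshold 0.05 for the Benjamini-Hochberg adjusted p over all 15326 tested genes). Over all tested genes 12.8% were called lower and 11.2% higher, 24% in all. The median log2 fold change of the members was −0.95, against 0.003 over all tested genes. Among the contactins 4 of 6 fell, and among the contactin-associated genes 2 of 4. The falls ran from 1.63-fold in Cntn3 to 38.3-fold in Cntnap3, whereas the rises, in Cntn2 and Cntnap4, were 1.96-fold and 2.26-fold. The mutant libraries lay wholly on one side of the wild type libraries for 8 of the members, and this held for 41.9% of all tested genes. The authors' deposited table gives a p-value below 0.05 for 8 of the 10, with no word on its test or adjustment. The share of all genes below 0.05 in that column was not counted, so this number has no background beside it.

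**Figure D1:**
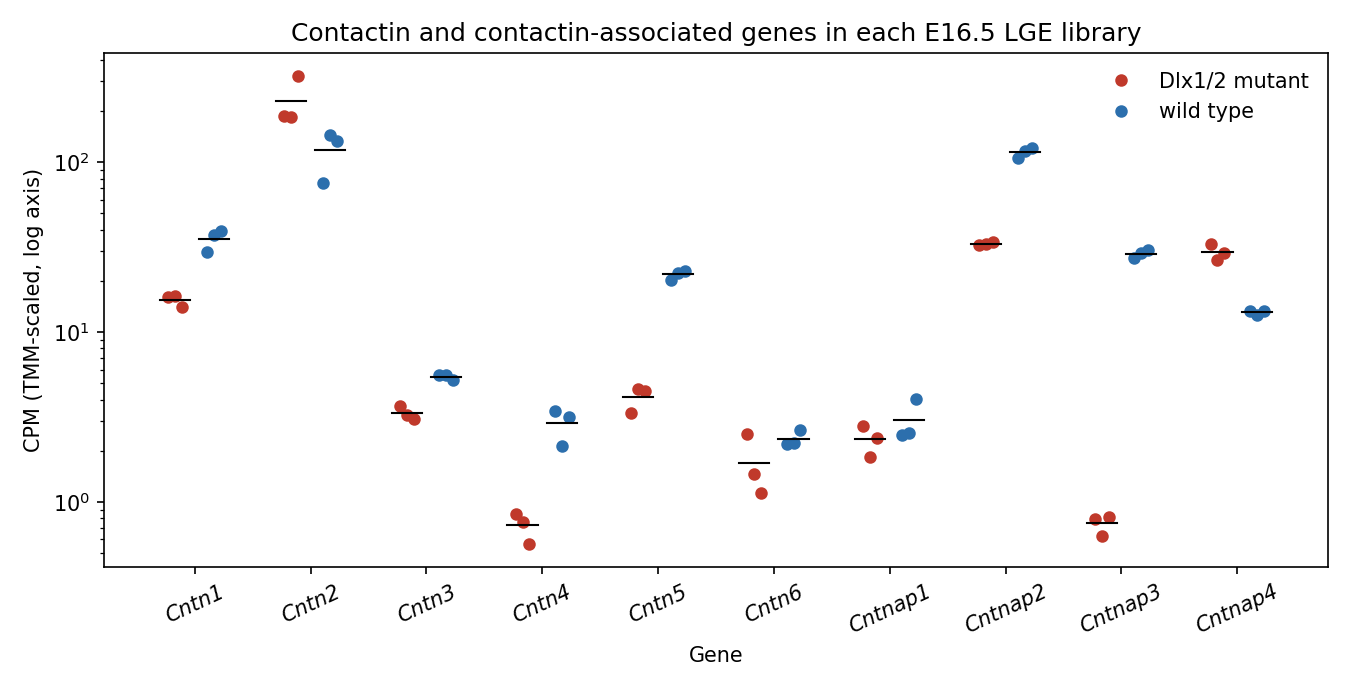
Level of each of the 10 genes in CPM after TMM scaling, on a log axis, with 1 point per library (mutant left, wild type right) and a bar at the mean of 3 libraries. Cntnap3 lies at 0.633 to 0.818 CPM in mutant libraries and at 27.1 to 30.5 CPM in wild type libraries, while Cntnap4 is higher in every mutant library than in any wild type library.

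For the genes that fell most, the bases upstream of a start site in RefSeq (GRCm38.p6) are shown, since homeodomain proteins such as the Dlx factors bind sites with a TAATT core and the windows let that core be looked for. Capitals mark TAATT on either strand (AATTA on the other), and bases that GENCODE M21 annotates as exon of the gene are left out. Cntnap3 is chr13:64903956-64904138 (minus strand), Cntn5 chr9:10904776-10905025 (minus), Cntn4 chr6:106118515-106118764 (plus) and Cntnap2 chr6:45059811-45060060 (plus). The windows of Cntn4 and Cntnap2 lie inside the gene as GENCODE draws it, before a start site that RefSeq places there.
Cntnap3: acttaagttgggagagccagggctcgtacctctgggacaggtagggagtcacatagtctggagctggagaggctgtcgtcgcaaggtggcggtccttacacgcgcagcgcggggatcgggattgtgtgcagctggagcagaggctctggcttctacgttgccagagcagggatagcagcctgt
Cntn5: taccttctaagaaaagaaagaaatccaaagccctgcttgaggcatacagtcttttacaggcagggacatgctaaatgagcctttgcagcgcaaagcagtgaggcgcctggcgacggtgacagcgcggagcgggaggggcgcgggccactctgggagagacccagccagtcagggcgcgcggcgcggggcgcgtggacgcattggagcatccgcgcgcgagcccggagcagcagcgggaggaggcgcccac
Cntn4: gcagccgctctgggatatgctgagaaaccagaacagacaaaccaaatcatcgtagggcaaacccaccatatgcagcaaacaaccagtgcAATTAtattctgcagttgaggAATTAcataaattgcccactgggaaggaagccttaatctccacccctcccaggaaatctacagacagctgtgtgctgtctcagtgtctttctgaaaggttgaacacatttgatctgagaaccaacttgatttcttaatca
Cntnap2: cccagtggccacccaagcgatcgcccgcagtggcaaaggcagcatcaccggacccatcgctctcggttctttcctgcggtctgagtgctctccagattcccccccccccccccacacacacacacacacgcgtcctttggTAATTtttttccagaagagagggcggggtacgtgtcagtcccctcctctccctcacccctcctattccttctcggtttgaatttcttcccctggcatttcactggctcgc

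The windows of Cntnap3 and Cntn5 hold 0 copies of TAATT on either strand, that of Cntn4 holds 2 and that of Cntnap2 holds 1. RefSeq gave 13 windows of 250 upstream bases for 8 of the genes, and no window for Cntnap1 or Cntnap4. All 250 bases were read, including exon bases that the printed windows leave out. Of these windows 7, or 53.8%, hold TAATT on either strand, against 25% of 32851 such windows over the genome. Windows of 1 gene can overlap, and their GC content ran from 26.4% in Cntn3 to 68.4% in Cntn5. The longer core TAATTA, which contains TAATT, was found in 1 window, the second of Cntn4, and in 4.84% of all windows. In that Cntn4 window it lies outside the longest stretch free of exon bases. A match of letters is not a bound site, and a window without one says nothing of the factor.

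Cntnap3, or Caspr3, is among the least studied of the Caspr proteins. Its gene (ENSMUSG00000033063) lies on GRCm38 chromosome 13, minus strand, from 64736182 to 64903955. It was counted at 13, 10 and 13 reads in mutant replicates 1 to 3, against 283, 448 and 506 reads in wild type replicates 1 to 3. These are 0.792, 0.633 and 0.818 CPM in the mutant and 27.1, 29.1 and 30.5 CPM in wild type. Every library of a genotype lay close to the others of that genotype, and the groups were far apart. The log2 fold change was −5.26 ± 0.122 (SE, n = 3 each), with an adjusted p of 3.97e-07 (edgeR). Its fitted fold change ranked 15 from the bottom among the 15326 tested genes. Its mutant level was still above the 0.183 to 0.190 CPM that 3 reads make in those libraries, so reads of the gene remained. Its upstream window, printed above, holds no TAATT. Permuting the 6 libraries exactly (two-sided) gave p = 0.1, the smallest value this design allows, for Cntnap3 and for each of the other 7 genes called.

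Cntnap4, or Caspr4, went the other way. It acts at synapses of GABA and dopamine neurons. Its gene (ENSMUSG00000031772) lies on chromosome 8, plus strand, from 112570043 to 112882717. Its level was 32.8, 26.6 and 29.3 CPM in the mutant libraries, against 13.3, 12.5 and 13.3 CPM in the wild type libraries. Each mutant library was above all wild type libraries, and the log2 fold change was 1.18 ± 0.091, adjusted p = 1.07e-04 (edgeR). The gene shares 503 exonic bases with Gm45904, an antisense transcript on the other strand, and since the strand setting of the counting is not given, reads of that stretch cannot be assigned.

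Cntnap3 and Cntnap4 are also each other's longest match by megablast among the GENCODE M21 transcripts of other genes. Their longest coding transcripts aligned over 1446 bases at 75.2% identity, and no other gene's transcript matched Cntnap3 at 95% identity or more. The log2 ratio of Cntnap4 to Cntnap3, from FPKM, was 4.62, 4.64 and 4.40 in mutant libraries and −1.78, −1.97 and −1.95 in wild type libraries. In wild type tissue Cntnap3 was thus the higher of the pair, and in mutant tissue Cntnap4 was. The ratio differed by 6.45 on the log2 scale, with SDs of 0.129 in the mutant and 0.104 in wild type (exact two-sided permutation p = 0.1). Each gene alone separated the groups, in opposite directions, so this p was fixed in advance and adds no support.

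Cntnap2, or Caspr2, gathers potassium channels along axons and is a gene tied to epilepsy and autism in people. It lies on chromosome 6, plus strand, from 45059357 to 47304213, one of the longest genes of the mouse genome, with a span of 2244.9 kb. Its level was 32.4, 32.9 and 33.9 CPM in the mutant, against 105.9, 115.9 and 120.5 CPM in wild type. The mutant libraries hardly differed from each other, and all lay far under the wild type range. The log2 fold change was −1.79 ± 0.058, adjusted p = 1.85e-06 (edgeR). Cntnap1, or Caspr, which builds the paranodal junction of myelinated axons, was scarce, at 2.80, 1.84 and 2.39 CPM in the mutant and 2.49, 2.53 and 4.04 CPM in wild type. Those ranges overlapped, and the log2 fold change of −0.38 ± 0.286 did not pass (adjusted p = 0.350, edgeR). Its exons share 233 bases with Plekhh3 on the opposite strand, which was higher in the mutant at 12.1 CPM against 8.54 CPM in wild type.

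**Figure D2:**
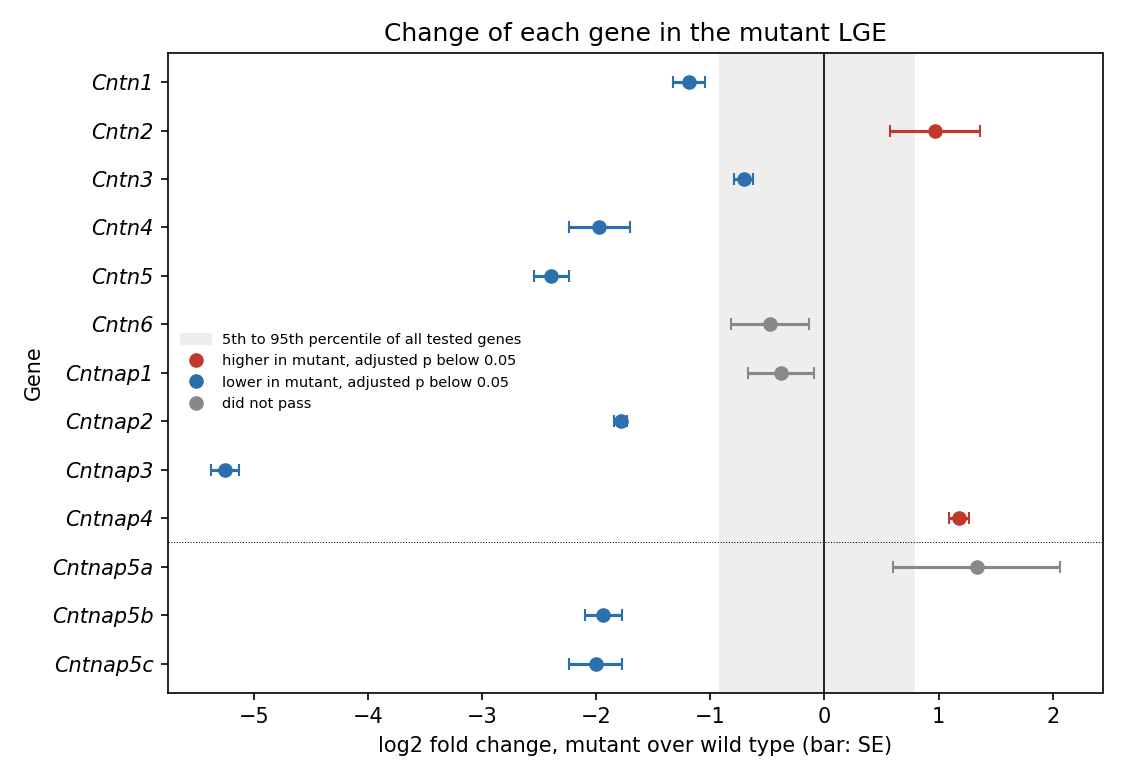
Log2 fold change of each gene, mutant over wild type, with its SE (3 libraries per group), for the 10 genes and, under the dotted line, for the 3 Cntnap5 genes. The grey band runs from the 5th to the 95th percentile of all tested genes, −0.91 to 0.78, and Cntnap3 lies farthest from it.

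Among contactins, Cntn5 (NB-2), which works in the auditory system and in the layering of retinal neurites, fell most. It was at 3.35, 4.62 and 4.47 CPM in mutant libraries, against 20.3, 22.2 and 22.9 CPM in wild type libraries. The groups were well apart, with a log2 fold change of −2.40 ± 0.155, adjusted p = 1.30e-05 (edgeR). Its gene lies on chromosome 9, minus strand, from 9660891 to 10904775, and shares 290 exonic bases with the antisense transcript Gm32710. In the mouse retina CNTN5 acts together with CNTNAP4. The log2 ratio of Cntn5 to Cntnap4 was −2.73, −1.96 and −2.15 in mutant libraries and 1.17, 1.39 and 1.34 in wild type libraries, since one gene of the pair fell and the other rose.

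Cntn4 (BIG-2), a receptor of olfactory axons that also binds the amyloid precursor protein, was rare. Its counts were 14, 12 and 9 reads in the mutant and 36, 33 and 52 reads in wild type. No mutant library reached the wild type range of 2.14 to 3.44 CPM. The log2 fold change was −1.98 ± 0.267, adjusted p = 0.00179 (edgeR). Counting error is large at this depth, and on the log2(FPKM + 0.1) scale, which shrinks rare genes, limma gave a log2 fold change of −0.97 and an adjusted p of 0.0421.

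Cntn1 (F3), the widely used contactin that pairs with CNTNAP1 and binds neurofascin, stood at 16.2, 16.3 and 14.1 CPM in mutant libraries and at 29.7, 37.2 and 39.1 CPM in wild type libraries. All mutant values were lower, with a log2 fold change of −1.19 ± 0.140, adjusted p = 2.91e-04 (edgeR). Cntn3 (BIG-1), which promotes neurite outgrowth in culture, was at 3.66, 3.23 and 3.08 CPM in the mutant, against 5.55, 5.59 and 5.19 CPM in wild type. Its fall was the smallest called, at −0.71 ± 0.081 on the log2 scale with an adjusted p of 0.0110 (edgeR), and it was not called by limma on log2(FPKM + 0.1), with an adjusted p of 0.073. Cntn6 (NB-3), known from the cerebellum and as a Notch ligand, was at 2.50, 1.46 and 1.13 CPM in the mutant and 2.20, 2.21 and 2.66 CPM in wild type. One mutant library lay inside the wild type range and the others under it, and the log2 fold change of −0.48 ± 0.342 did not pass (adjusted p = 0.309, edgeR).

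Cntn2 (TAG-1), a contactin of growing axons, varied between libraries of the same genotype. It had 186.1, 183.8 and 319.6 CPM in mutant replicates 1 to 3, against 75.0, 143.5 and 132.9 CPM in wild type replicates 1 to 3. Mutant replicate 3 and wild type replicate 1 stood apart from the rest of their groups, one high and the other low, yet the groups did not overlap. The log2 fold change was 0.97 ± 0.395, adjusted p = 0.0412 (edgeR). The call was lost without mutant replicate 1 or 3 and without wild type replicate 1, 2 or 3, at adjusted p of 0.0541 to 0.115 (edgeR), and DESeq2 gave 0.0579. Without mutant replicate 3 the log2 fold change was 0.65 and without wild type replicate 1 it was 0.73. The rise in Cntn2 is therefore held less firmly than that in Cntnap4.

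Markers of pallial progenitors and glutamatergic neurons, which the dissection could hold, did not move together. Of 10 such genes 8 were tested, and 4 rose and 0 fell, led by Neurod6 at 44.6 ± 10.2 CPM in the mutant and 8.05 ± 4.31 CPM in wild type and by Neurod2 at 58.6 ± 12.7 CPM in the mutant and 11.1 ± 5.83 CPM in wild type. The other 4 tested did not pass. Of them Neurog2 was at 3.73 ± 2.31 CPM in the mutant and 8.74 ± 1.88 CPM in wild type and Eomes at 4.34 ± 2.40 CPM in the mutant and 8.62 ± 5.14 CPM in wild type. Tbr1 was at 6.91 ± 2.77 CPM in the mutant and 12.6 ± 7.08 CPM in wild type, and Emx2 at 24.9 ± 3.71 CPM in the mutant and 22.2 ± 2.49 CPM in wild type. These 4 are named after their values were seen. The list summed to 199.7, 177.5 and 140.6 CPM in mutant replicates 1 to 3 and to 59.1, 111.1 and 76.0 CPM in wild type replicates 1 to 3. Within the mutant group the replicate with the most Cntn2 had the lowest sum, and within wild type the replicate with the least Cntn2 had the lowest sum. Slc17a7, a marker of cortical excitatory neurons, was at 0 to 8 reads and Emx1 at 1 to 13 reads in all libraries, with Slc17a7 at 0 in wild type replicate 1. Pan-neuronal markers summed to 5393 to 5637 CPM in mutant and 6155 to 6902 CPM in wild type libraries, with 5 of 10 lower and 2 higher. The 8 radial glia and astrocyte markers summed to 1367 to 1512 CPM in mutant and 1113 to 1174 CPM in wild type libraries, with 4 higher and 0 lower. Called were 50% of the tested pallial markers, 70% of the pan-neuronal and 50% of the radial glia and astrocyte markers, against 24% of all tested genes. The part of these cell types in the changes of the contactin and Caspr genes was not tested.

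Among other cells that the dissection could hold, oligodendrocyte lineage markers summed to 184.8 to 205.6 CPM in mutant and 132.1 to 178.2 CPM in wild type libraries, with 2 of 9 tested higher and 0 lower. Mag, a protein of myelin at the axon, was at 2 to 7 reads in mutant and 1 to 5 reads in wild type libraries. Markers of the neighbouring medial eminence summed to 455.3 to 507.5 CPM in mutant and 223.0 to 401.8 CPM in wild type libraries. Of the 6 markers 2 were higher, Sst and Gbx2, and 2 lower, Lhx8 and Zic1, while Nkx2-1 and Lhx6 did not pass. Nkx2-1 was at 70.7 ± 32.2 CPM in the mutant and 75.1 ± 38.1 CPM in wild type. Lhx6 was at 155.2 ± 9.93 CPM in the mutant and 178.0 ± 38.4 CPM in wild type. Without Sst, at 222.7 ± 38.0 CPM in the mutant and 17.2 ± 3.63 CPM in wild type, the sums overlapped, at 225.5 to 280.9 CPM in mutant and 209.9 to 381.8 CPM in wild type libraries. Markers of vessels, blood, microglia, fibroblasts and choroid plexus summed to 453.4 to 582.9 CPM in mutant and 367.5 to 444.1 CPM in wild type libraries. Most of that sum came from the globin genes of blood. Hba-a1 was at 283.8 ± 53.1 CPM in the mutant and 213.8 ± 40.2 CPM in wild type, and did not pass. Hbb-bt was at 94.3 ± 12.55 CPM in the mutant and 55.2 ± 7.51 CPM in wild type. Of the 10 tested, 1 was higher, Hbb-bt, and 1 lower, Col1a1, and 8 did not pass. The share called was 22.2% for the oligodendrocyte lineage, 66.7% for the medial eminence and 20% for this last list. Over all tested genes it was 24%.

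The make-up of the family was read from the deposited FPKM, which scale counts by gene length. Cntnap2, Cntn2 and Cntnap3 led in wild type, at 6.53 ± 0.508, 5.89 ± 1.91 and 5.89 ± 0.425 FPKM, and their library ranges overlapped. Next in wild type came Cntn5 at 3.88 ± 0.289, Cntn1 at 2.77 ± 0.424 and Cntnap4 at 1.57 ± 0.049 FPKM, none of which overlapped its neighbour among these, though the highest libraries of Cntn5 lay above the lowest of Cntn2. Cntnap1, Cntn3, Cntn6 and Cntn4 were the lowest there, at 0.503, 0.486, 0.282 and 0.194 FPKM. Cntnap1 overlapped Cntn3 within its spread.

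In the mutant the order was another one. Cntn2 led at 11.7 ± 3.88 FPKM, followed by Cntnap4 at 3.62 ± 0.390, Cntnap2 at 1.92 ± 0.031, Cntn1 at 1.24 ± 0.106 and Cntn5 at 0.750 ± 0.122 FPKM, with no overlap between neighbours. Cntnap3, at 0.155 ± 0.020 FPKM, was second lowest after Cntn4 and overlapped Cntn6 at 0.207 ± 0.088 FPKM. Cntn2 made up 56.6% ± 7.95 of the summed family FPKM in the mutant and 20.7% ± 4.63 in wild type. The share of Cntnap3 was 0.77% ± 0.10 in the mutant and 21.1% ± 1.38 in wild type.

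**Figure D3:**
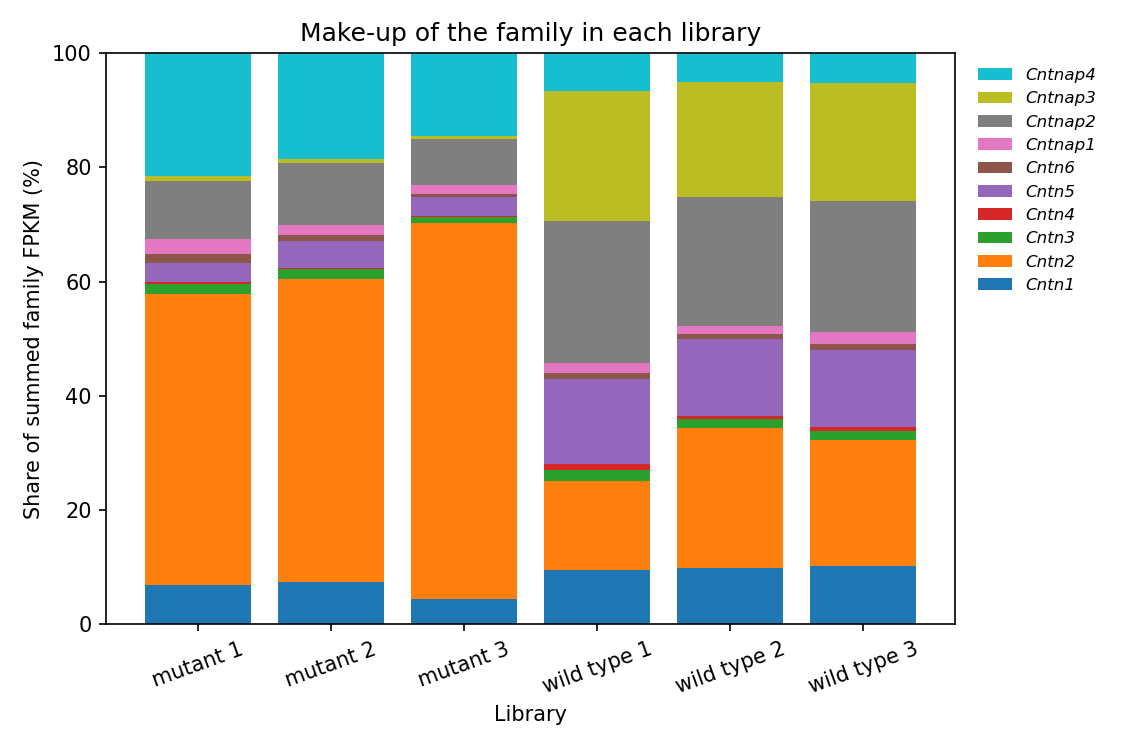
Share of each gene in the summed FPKM of the 10 genes, as stacked bars, with 1 bar per library and mutant libraries on the left. Cntn2 takes 51.0% to 65.7% of each mutant bar and 15.5% to 24.4% of each wild type bar, and Cntnap3 is a thin band in the mutant.

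Summed over the 6 contactins, the level was 12.1, 12.0 and 18.5 FPKM in the mutant and 10.5, 15.1 and 14.9 FPKM in wild type, and the groups overlapped. Without Cntn2 the sum was 2.54 ± 0.154 FPKM in the mutant and 7.61 ± 0.712 FPKM in wild type. The 4 Caspr genes summed to 6.09 ± 0.476 FPKM in the mutant and 14.5 ± 1.07 FPKM in wild type. The lengths that the FPKM imply differ from the exons of GENCODE M21, most for Cntn2 with 19761 bases implied and 9304 bases of exons. With CPM per kilobase of those exons, Cntn2 held 66.5% in the mutant and 30.2% in wild type, Cntnap3 held 0.33% in the mutant and 11.2% in wild type, and in wild type Cntn2 led and Cntn5 came before Cntnap3.

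The known partners of the axon also shifted against each other. The log2 ratio of Cntn2 to Cntnap2 was 2.33, 2.29 and 3.05 in mutant libraries and −0.69, 0.12 and −0.05 in wild type libraries, a difference of 2.76. The log2 ratio of Cntn1 to Cntnap1 was 1.44, 2.07 and 1.47 in mutant libraries and 2.49, 2.79 and 2.19 in wild type libraries, a difference of −0.83 that rests on 26 to 67 reads of Cntnap1 per library. Neither pair of groups overlapped, and the exact two-sided permutation p was 0.1 for each. Every mutant library was higher in Cntn2 and lower in Cntnap2 than any wild type library. Their ratio therefore had to separate the groups, and its p only restates the differences of the single genes. The same holds for Cntnap4 to Cntnap3 and for Cntn5 to Cntnap4. The 4 log2 ratios given here were all that were computed, and their p stayed at 0.1 after Benjamini-Hochberg adjustment.

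Of the 3 Cntnap5 genes, the paralogs of the Caspr family outside the 10, 2 fell and 1 did not pass. Among all tested genes 12.8% were called lower. Cntnap5b was at 3.17, 3.10 and 2.83 CPM in mutant libraries and 9.28, 13.2 and 12.3 CPM in wild type libraries, a log2 fold change of −1.94 ± 0.161 (adjusted p = 1.13e-04, edgeR). Cntnap5c was at 2.13, 1.77 and 2.58 CPM in the mutant, against 10.5, 6.95 and 8.81 CPM in wild type (−2.01 ± 0.232, adjusted p = 3.78e-04, edgeR). Both were lower in every mutant library. Cntnap5a had 30.0, 29.9 and 26.7 CPM in mutant libraries and 3.92, 7.15 and 22.2 CPM in wild type libraries. Its wild type libraries were far apart, and its log2 fold change of 1.33 ± 0.731 did not pass (adjusted p = 0.0853, edgeR).

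Genes of proteins that hold the contactin and Caspr pairs at the axon were read as a list. Of 20 tested genes of the paranode, the juxtaparanode and the axon initial segment, 7 fell and 1 rose. This is 40% called, against 24% of all tested genes. The median log2 fold change was −0.05, against 0.003 over all tested genes. Epb41l3, the protein 4.1B that ties Caspr proteins to the cytoskeleton, was at 32.0, 32.6 and 26.1 CPM in the mutant, against 64.3, 73.0 and 69.5 CPM in wild type (−1.19 ± 0.116, adjusted p = 9.02e-05, edgeR). Lgi2, a secreted ligand of ADAM receptors, fell by 2.38 on the log2 scale, and the receptor gene Adam23 by 0.77. The potassium channel gene Kcna4 fell by 1.28. Kcna1 and Kcna2, also channel genes of this list and named after their values were seen, did not pass. Both were higher in every mutant library than in any wild type library. Kcna2 was at 26.5 ± 2.9 CPM in the mutant and 10.4 ± 8.6 CPM in wild type (adjusted p = 0.0855, edgeR). Kcna1 had 11 to 13 reads in mutant and 1 to 7 reads in wild type libraries (adjusted p = 0.0655, edgeR). The spectrin genes Sptbn4, of the initial segment, and Sptbn1 fell by 0.86 and 0.29. The 1 gene that rose was Ank3, the ankyrin of the initial segment, named here after its values were seen, at 307.6 ± 12.0 CPM in the mutant and 245.2 ± 27.0 CPM in wild type (adjusted p = 0.0205, edgeR). Its call was lost without mutant replicate 2 and without mutant replicate 3, where 0 genes of the list were higher.

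**Figure D4:**
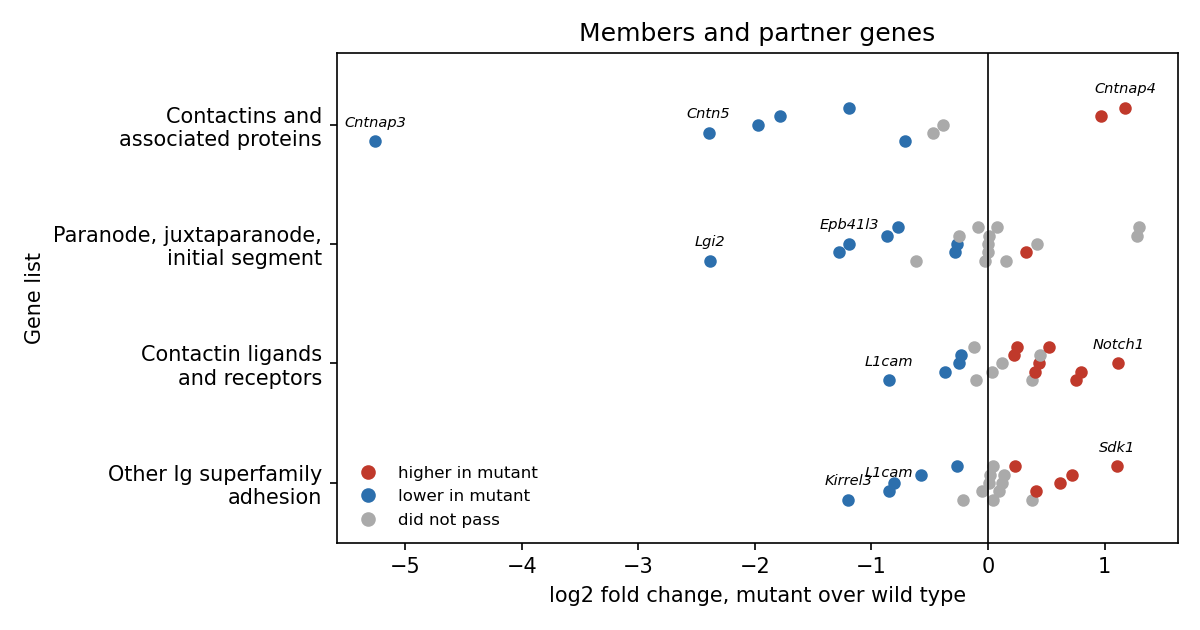
Log2 fold change, mutant over wild type, of each tested gene of 4 lists, with 1 point per gene coloured by call. The 10 contactin and Caspr genes spread from −5.26 to 1.18, and the 20 other immunoglobulin superfamily adhesion genes from −1.20 to 1.11.

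Ligands and receptors of contactins moved both ways. Of 18 tested, 8 rose and 4 fell, with a median of 0.24. This is 66.7% called, against 24% of all tested genes. Ptprz1, the receptor phosphatase that binds CNTN1, was at 1111, 1069 and 1040 CPM in mutant libraries and 655.1, 613.5 and 587.8 CPM in wild type libraries (log2 fold change 0.79 ± 0.053, adjusted p = 4.99e-05, edgeR). Ptprz1 and Cntn1 thus moved in opposite directions in bulk tissue, and a link between them was not tested. Notch1, a receptor that CNTN1 and CNTN6 can bind, rose by 1.12 on the log2 scale, and Dner, a Notch ligand of neurons, by 0.76. Vcan, a matrix proteoglycan, rose by 0.53. L1cam, an adhesion protein that binds CNTN2, fell by 0.85, with 186.4 ± 3.20 CPM in the mutant and 336.7 ± 21.3 CPM in wild type. App, a partner of CNTN4, fell by 0.37.

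Other immunoglobulin superfamily adhesion genes of neurons gave 5 higher and 5 lower of 20 tested, with a median of 0.04. This is 50% called, against 24% of all tested genes. Kirrel3, an adhesion protein of olfactory and hippocampal wiring, fell by 1.20 on the log2 scale to 22.0, 22.7 and 17.7 CPM in mutant libraries, against 37.5, 57.5 and 47.9 CPM in wild type libraries. Dscam and Cadm2 fell by 0.57 and 0.81. The sidekick genes Sdk1 and Sdk2, known for matching layers of the mouse retina, rose by 1.11 and 0.41. L1cam, Nrcam and Chl1 stand in both this list and that of the ligands. Nfasc, called lower, stands in both this list and that of the paranode.

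Genes whose profile over the 6 libraries lay closest to that of Cntnap3, by Euclidean distance of log2 CPM centred on each gene's mean, were Dlx6 at 0.57, Wnt11 at 0.62, Sowaha at 0.64, Drd1 at 0.69 and Dlx5 at 0.70. The profile of Cntnap3 itself had a length of 6.40 on that scale. Dlx6 was at 1.88 CPM in the mutant and 70.0 CPM in wild type, and Drd1, the dopamine receptor of the direct striatal pathway, at 0.643 CPM in the mutant and 19.9 CPM in wild type. Wnt11 had 0 reads in the mutant and 0.980 CPM in wild type, so its distance depends on the 0.5 added to each count. Around Cntnap4, the nearest were Itga7 at 0.19, Ednrb and Abca1 at 0.20 each, Ltbp1 at 0.20 and Miat at 0.22, with a length of 1.45 for Cntnap4. With 3 libraries per genotype, such a distance mostly reads the size of the difference between the groups.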

How the data were processed

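RNA of dissected E16.5 LGE was sequenced by the authors in 3 mutant and 3 wild type libraries. Builds GRCm38.p4 and mm10 are listed in the submitters' processing notes, as are StringTie 1.3.0, HISAT2 2.0.4 and edgeR, with no role for any. No source used here gives the counter or strand setting. The deposited counts are raw counts per gene per the file headers. The deposited FPKM are the count divided by the library total and by 1 length per gene, a length equal between libraries to within 0.0001 in the 11418 genes with more than 50 reads in each library, the only ones checked. Library names carry a different prefix in each genotype, and a batch along that prefix cannot be told apart from genotype. The p-value per gene was deposited by the authors with no word on its test.

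Counts were fitted with edgeR 4.0.16 in R 4.3.3 (filterByExpr, TMM, glmQLFit, glmQLFTest, two-sided) on 15326 of 21286 genes, p-values were adjusted by Benjamini-Hochberg, and 0.05 was the threshold. CPM are TMM-scaled. The SE comes from log2 CPM with 0.5 added to each count. The floors of 3 counts cover counting error only, while the SE and SD reflect the spread between the 3 libraries of a group. In a simulation of this comparison with 15326 genes edgeR recovered 90% of 2-fold and 97% of 4-fold changes, with 11 false calls. Each fold size was given to 100 genes, and all genes had the same spread between libraries. The recovery therefore does not hold for genes that vary more, such as Cntn2. Alternatives were RLE scaling, no filter, DESeq2 1.42.0, a replicate block, each library left out, a stricter threshold, a 2-fold minimum and limma 3.58.1 on log2(FPKM + 0.1). Replicate pairs differed by more than sampling noise (chi-square per degree of freedom 7.15 to 14.3). The genes, lists and tests were chosen with earlier results of these data known. Named besides the 10 genes were up to 6 genes of each partner list with the smallest adjusted p, all Cntnap5 genes, leading markers, Dlx1, Dlx2 and the 5 genes most like Cntnap3 and Cntnap4. Of the paranode list, Ank3, Kcna1 and Kcna2 were named as well, after their values were seen. Nrcam, Chl1 and Nfasc are named only because lists share them. Positions are from GENCODE M21 (GRCm38) and upstream bases from RefSeq GRCm38.p6.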

Additional observations from a re-analysis of the deposited data

How the results depend on the processing

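All 10 genes kept their direction under all 12 alternatives, and 8 of them their side of the threshold too (stricter threshold included). Cntn2 lost its call in 8, at log2 fold changes of 0.97 with DESeq2, 0.988 with limma on log2(FPKM + 0.1), 0.968 at adjusted p below 0.01, and 0.652 to 1.134 over the libraries left out. Cntn3 lost its call with limma (−0.547) and at adjusted p below 0.01 (−0.708). Members called higher were thus 1 with DESeq2, limma, the stricter threshold and a 2-fold minimum, and 1 to 2 with a library left out, where 6 stayed lower.

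Over all genes, adjusted p below 0.01 left 875 higher and 1116 lower, and a 2-fold minimum 436 and 619. Under adjusted p below 0.01, paranode genes had 0 higher, ligands and receptors 5 higher and 2 lower, and other adhesion genes 2 higher. A 2-fold minimum left paranode genes 0 higher and 3 lower, ligands and receptors 1 and 0, and other adhesion genes 1 and 1. With a library left out, Cntnap5 genes had 0 to 1 higher, paranode genes 0 to 3 higher, ligands and receptors 5 to 8 higher and 2 to 4 lower, and other adhesion genes 3 to 5 higher. Without wild type replicate 3, Cntnap5a was the 1 higher.

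Same-numbered libraries did not pair (correlations of −0.176, 0.043 and −0.168). With the replicate block, 2 members were higher and 6 lower. Precision is limited by depth for Cntn4, Cntn6 and Cntnap1, with 9 to 67 reads per library, and for Cntnap3 in the mutant.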

Other observations

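The 3 members that span at least 500 kb of the genome, Cntn4, Cntn5 and Cntnap2, were all lower in the mutant. Of 212 tested genes of that span, these included, 34.4% were called lower and 19.3% higher, against 12.8% lower and 11.2% higher of all 15253 tested genes matched to GENCODE. Of the 525 genes of at least 300 kb, 28.4% were lower and 19.2% higher. The span was looked at after the values had been seen, so these shares are descriptions with no test.

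Cntn2 and Cntnap5a were the genes of the contactin and Caspr families with the largest SD relative to the mean in wild type, at 75.0 to 143.5 CPM for Cntn2 and 3.92 to 22.2 CPM for Cntnap5a. Both were lowest in wild type replicate 1, the library with the fewest reads, and Cntnap5a was highest in wild type replicate 3.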
